A study of Neurospora crassa with 4 samples.

Results

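The mitogen-activated protein kinase (MAP kinase) genes of *Neurospora crassa* examined here are 8 loci that encode protein kinases of 3 signaling cascades. The loci were taken by their locus tags from a given list by a rule that uses no measured value, and all 8 were found as rows of their own among the 9691 rows of the expression tables. The mating and cell fusion cascade is represented by *nrc-1* (NCU06182), *mek-2* (NCU04612) and *mak-2* (NCU02393). The cell wall integrity cascade is represented by *mik-1* (NCU02234) and *mek-1* (NCU06419), and the osmotic cascade by *os-4* (NCU03071), *os-5* (NCU00587) and *os-2* (NCU07024). The kinase at the end of the cell wall cascade, *mak-1* (NCU09842), is not among the 8 and was read with the other genes of the pathways.

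Conidia, the asexual spores, of the Δ*czt-1* and the wild-type strain were grown for 6 h at 26°, and staurosporine at 20 μM or its solvent DMSO was then added for 1 h. Staurosporine is a broad inhibitor of protein kinases, and Δ*czt-1* lacks NCU09974, the gene of a zinc cluster transcription factor and the comparison of the strains asks what part this factor has in the response to the drug. The 4 conditions were Δ*czt-1* with staurosporine, Δ*czt-1* with DMSO, wild type with staurosporine and wild type with DMSO. Each condition was 1 library of polyadenylated RNA, so no value below has a replicate error and no difference could be tested.

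In a MAP kinase cascade a kinase of the first tier (MAPKKK) phosphorylates a kinase of the second (MAPKK), which phosphorylates and so activates the MAP kinase (MAPK). In *N. crassa* the MAK-2 cascade serves the fusion of germinating conidia and sexual development, the MAK-1 cascade the cell wall and hyphal fusion, and the OS-2 cascade the response to high osmolarity, where it acts downstream of a histidine kinase phosphorelay. Activation is by phosphorylation, which was not measured here: all values below are transcript levels.

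Expression was read as FPKM, the number of fragments relative to transcript length and to all mapped reads, a level that may be compared between genes. Differences between libraries are given on the log2(FPKM + 1) scale, where 1 stands for 2-fold, and this scale understates the differences of weakly expressed genes. Of the 9691 rows, 7896 reached 1 FPKM in at least 1 library, among them all 8 kinases. With DMSO as with staurosporine, *czt-1* itself was at 1.54 and 2.26 FPKM in Δ*czt-1* (staurosporine, DMSO) and at 384 and 19.7 FPKM in wild type (staurosporine, DMSO), so the strain labels fit the libraries.

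The libraries differed in composition. The FPKM of all rows summed to 550288 in Δ*czt-1* with staurosporine and 877439 with DMSO, against 570298 and 1072130 in wild type, and the 100 highest rows held between 34.1% and 56.6% of these sums. The sources used here give no depth, but the spacing of the lowest values placed 1 read at 1.62 and 0.933 times its wild-type DMSO value in Δ*czt-1* (staurosporine, DMSO) and at 1.87 times in wild type with staurosporine. By this rough measure the 8 kinases rested on about 530 reads at the least (*nrc-1*, wild type with DMSO) and about 18000 at the most (*mek-1*, same library). As deposited, the median row differed between staurosporine and DMSO by 0.00 in Δ*czt-1* and 0.11 in wild type, and when every library was scaled to the same sum instead, these medians were 0.60 and 0.85. The deposited scale was kept, and directions of named genes and groups that this other scale turns round are given beside them.

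In every library the 8 kinases formed a similar ladder, with the MAPKKK of each cascade at a lower level than its MAPKK. Their median was 75.8 and 40.8 FPKM in Δ*czt-1* (staurosporine, DMSO) and 47.6 and 53.0 FPKM in wild type (staurosporine, DMSO). The median of all rows past the filter lay between 14.0 and 15.3 FPKM. In wild type with DMSO the order from low to high was *nrc-1*, *mik-1*, *os-4*, *os-5*, *mek-2*, *os-2*, *mak-2* and *mek-1*, running from the 34.0th to the 95.3rd percentile of rows. In that library *mak-2* (319 FPKM) and *mek-1* (321 FPKM) stood at almost the same level, and with no replicates the order of such neighbours cannot be settled.

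**Figure D1:**
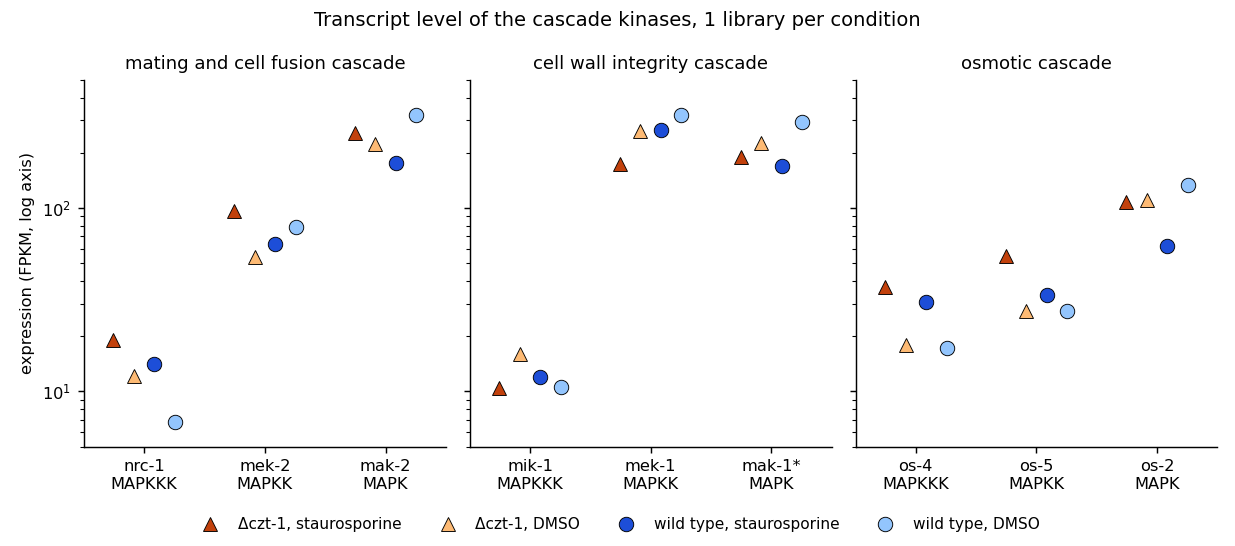
Expression of the cascade kinases in the 4 libraries (FPKM, log axis), in 3 panels by cascade and ordered within each from MAPKKK to MAPK; each point is 1 library, triangles are Δ*czt-1*, circles wild type, and *mak-1*, marked with an asterisk, is not one of the 8. The MAPKKK genes lie between 6.81 and 36.9 FPKM, and *os-2* and *mak-2* are lowest, as deposited, in wild type with staurosporine (61.8 and 176 FPKM).

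In the mating and cell fusion cascade *nrc-1*, the MAPKKK, was at 19.1 and 12.1 FPKM in Δ*czt-1* (staurosporine, DMSO), against 14.1 and 6.81 FPKM in wild type (staurosporine, DMSO). It had the widest range of the 8 (1.36 on the log2 scale), set by its low level in wild type with DMSO. *mek-2*, the MAPKK, was at 96.8 and 54.0 FPKM in Δ*czt-1*, against 63.9 and 78.6 FPKM in wild type in the same order of treatments. *mak-2*, the MAPK that drives germling fusion, was at 256 and 222 FPKM in Δ*czt-1*, against 176 and 319 FPKM in wild type. Both *mek-2* and *mak-2* were thus higher with the drug in the mutant and lower with the drug in the wild type, whereas *nrc-1* was higher with the drug in both; with equal library sums, *mek-2* and *mak-2* were higher with the drug in wild type too (0.60 and 0.05).

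In the cell wall cascade *mik-1*, the MAPKKK, had 10.4 and 16.0 FPKM in Δ*czt-1* (staurosporine, DMSO), against 11.9 and 10.5 FPKM in wild type (staurosporine, DMSO). *mek-1*, the MAPKK, had 173 and 262 FPKM in Δ*czt-1*, against 266 and 321 FPKM in wild type. On the deposited scale Δ*czt-1* with staurosporine was the lowest of the 4 libraries for both genes, and with equal library sums it was not. Their MAPK, *mak-1*, had 190 and 226 FPKM in Δ*czt-1* (staurosporine, DMSO), against 169 and 294 FPKM in wild type, and was lowest in wild type with staurosporine as deposited.

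Among the osmotic kinases, *os-4*, the MAPKKK, had 36.9 and 18.0 FPKM in Δ*czt-1* (staurosporine, DMSO), against 30.6 and 17.2 FPKM in wild type (staurosporine, DMSO). For *os-4* both staurosporine libraries lay above both DMSO libraries. *os-5*, the MAPKK, stood at 54.9 and 27.6 FPKM in Δ*czt-1*, against 33.4 and 27.5 FPKM in wild type. The mutant with the drug was the high library for *os-5*, and the DMSO libraries of the strains were nearly level. *os-2*, the MAPK of the osmotic response, stood at 107 and 111 FPKM in Δ*czt-1*, against 61.8 and 133 FPKM in wild type. As deposited, wild type with staurosporine was thus the single low library for *os-2*. With equal library sums it was at −0.19 relative to wild type with DMSO, and the mutant with staurosporine stood 0.84 above it.

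Staurosporine was next set against DMSO within each strain. In the mutant, transcripts of the mating cascade and the first tiers of the osmotic cascade were more abundant with the drug, while those of the cell wall cascade were less abundant as deposited but not with equal library sums. Relative to DMSO, *os-4* was higher by 1.00 on the log2 scale (2.05-fold in FPKM), *os-5* by 0.97 (1.99-fold), *mek-2* by 0.83 (1.79-fold) and *nrc-1* by 0.62. *mak-2* was higher by 0.20, and *os-2* differed by −0.05. For *mik-1* and *mek-1* the differences were −0.57 and −0.60, and with equal library sums these and that of *os-2* were above 0 (0.05, 0.07 and 0.62). None of the 8 reached 2-fold on this scale, a size that 37.7% of all rows reached in Δ*czt-1*; *os-4* missed it narrowly. At 1.5-fold there were 4 higher and 1 lower, 5 of 8, against 59.4% of all rows. The median of the 8 was 0.41, against 0.00 for all rows.

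In wild type, as deposited, the drug went with opposite differences at the top and the bottom of the mating and osmotic cascades. *nrc-1* was higher by 0.95 (2.07-fold in FPKM) and *os-4* by 0.79 (1.78-fold). *mik-1*, the third MAPKKK, was at 0.16, close to the median row (0.11). *os-2* was lower, at −1.09, *mak-2* at −0.86 and *mak-1* at −0.80, which covers the MAPK of every cascade; with equal library sums *os-2* remained lower (−0.19) and *mak-2* and *mak-1* did not (0.05 and 0.11). The MAPKK genes lay between, with *os-5* at 0.27, *mek-1* at −0.27 and *mek-2* at −0.29, the last pair turning positive under equal sums (0.64 and 0.60). Of the 8 kinases only *os-2* reached 2-fold on this scale, against 26.8% of all rows in wild type. *nrc-1* missed it narrowly, and was at 1.04 with a pseudocount of 0.1 in place of 1. At 1.5-fold there were 2 higher and 2 lower, 4 of 8, against 49.4% of all rows. The median of the 8 was −0.05 and that of all rows 0.11. With equal library sums these medians were 0.82 and 0.85.

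**Figure D2:**
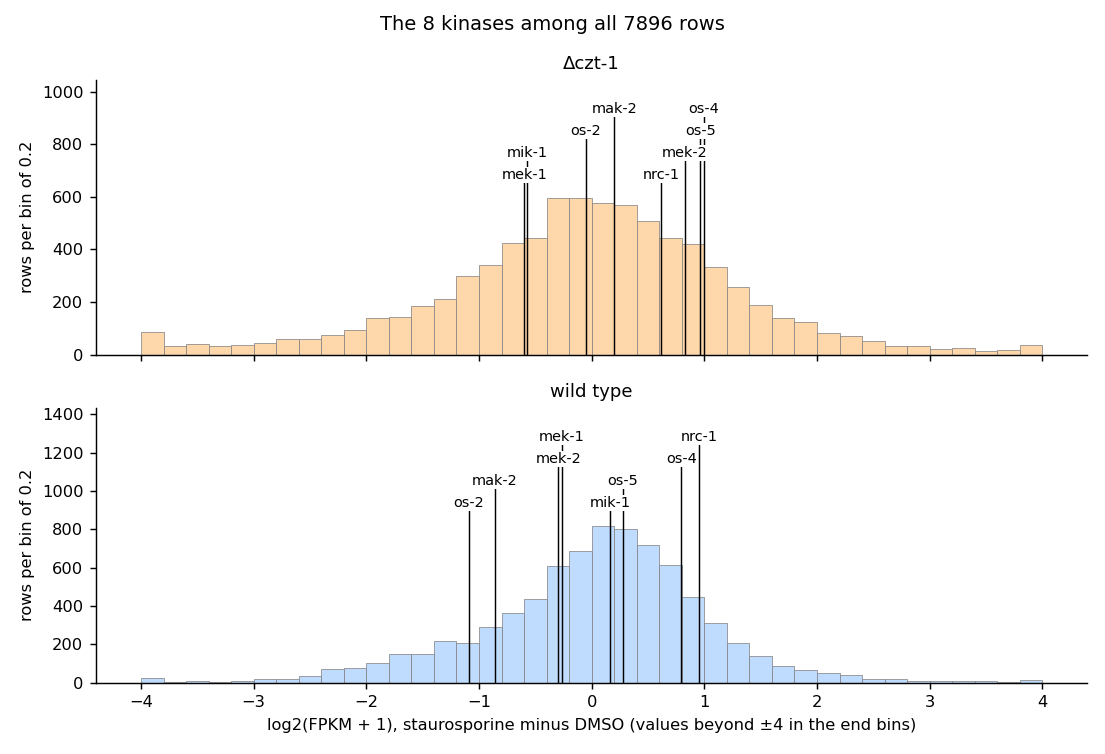
Distribution of the difference between staurosporine and DMSO over all 7896 rows (log2(FPKM + 1), staurosporine minus DMSO, rows per bin), for Δ*czt-1* above and wild type below, with a line at the value of each of the 8 kinases. All 8 lie within the bulk of the rows, between −0.60 and 1.00 in Δ*czt-1* and between −1.09 and 0.95 in wild type; scaling all libraries to the same sum would move the median row to 0.60 and 0.85.

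The shares of rows show where these values stood. In wild type, *nrc-1* lay above 86.0% of rows and *os-4* above 81.4%, whereas *mak-2* lay above 16.4% and *os-2* above 12.8%. In the mutant, *os-4* lay above 81.8% of rows, *os-5* above 81.0% and *mek-2* above 77.4%. In these responses the counts of 2-fold and 1.5-fold differences among the 8 kinases were near or below the shares in the whole table, and the kinases did not stand apart from it by the size of their differences.

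Rows of different level also differed in their typical value. Among the 2416 rows with a mean of 10 to 30 FPKM, where *nrc-1*, *mik-1* and *os-4* fall, the median difference with staurosporine was −0.05 in Δ*czt-1* and 0.14 in wild type. Among the 1555 rows of 30 to 100 FPKM, which hold *mek-2* and *os-5*, it was −0.16 in Δ*czt-1* and 0.01 in wild type. The 656 rows of 100 to 300 FPKM, with *mak-2*, *mek-1* and *os-2*, had medians of −0.40 and −0.18. As deposited, the strongly expressed rows thus had the lowest medians of these classes, and below 0; with equal library sums the medians were 0.59, 0.50 and 0.26 in Δ*czt-1* and 1.00, 0.90 and 0.72 in wild type, in the same order but above 0. The part of this in the order of the tiers was not tested. The quartiles of the 656 rows ran from −0.97 to 0.52 in wild type, which includes *mak-2* and leaves *os-2* outside.

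Ratios of 2 genes within 1 library do not depend on how the libraries are scaled, and describe the shift between tiers directly. The ratio of *mak-2* to its MAPKKK *nrc-1* was 13.4 and 18.3 in Δ*czt-1* (staurosporine, DMSO), against 12.5 and 46.9 in wild type (staurosporine, DMSO). It was 1.37-fold lower with the drug in the mutant and 3.76-fold lower in wild type. Wild type with DMSO was the library that stood apart, and the other 3 lay between 12.5 and 18.3.

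For the osmotic cascade, *os-2* over *os-4* was 2.91 and 6.18 in Δ*czt-1*, against 2.02 and 7.70 in wild type, in the same order of treatments. This ratio was 2.13-fold lower with the drug in the mutant and 3.81-fold lower in wild type, and here both DMSO libraries were above both staurosporine libraries. The difference lay mainly at the last step: *os-2* over *os-5* was 1.95 and 4.02 in Δ*czt-1*, against 1.85 and 4.83 in wild type, while *os-5* over *os-4* only ranged between 1.09 and 1.59.

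In the mating cascade the steps differed by strain. *mek-2* over *nrc-1* was 5.07 and 4.46 in Δ*czt-1* (staurosporine, DMSO), against 4.53 and 11.6 in wild type, and *mak-2* over *mek-2* was 2.64 and 4.11 in Δ*czt-1*, against 2.75 and 4.06 in wild type. In wild type the first of these ratios differed more between the treatments, and in the mutant the second, which hardly differed between the strains at either treatment. In the cell wall cascade *mak-1* over *mik-1* was 18.2 and 14.1 in Δ*czt-1*, against 14.2 and 28.0 in wild type. With staurosporine it was 1.97-fold lower in wild type and somewhat higher in the mutant. *mek-1* over *mik-1* was 16.6 and 16.4 in Δ*czt-1*, level between the treatments, against 22.4 and 30.5 in wild type.

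**Figure D3:**
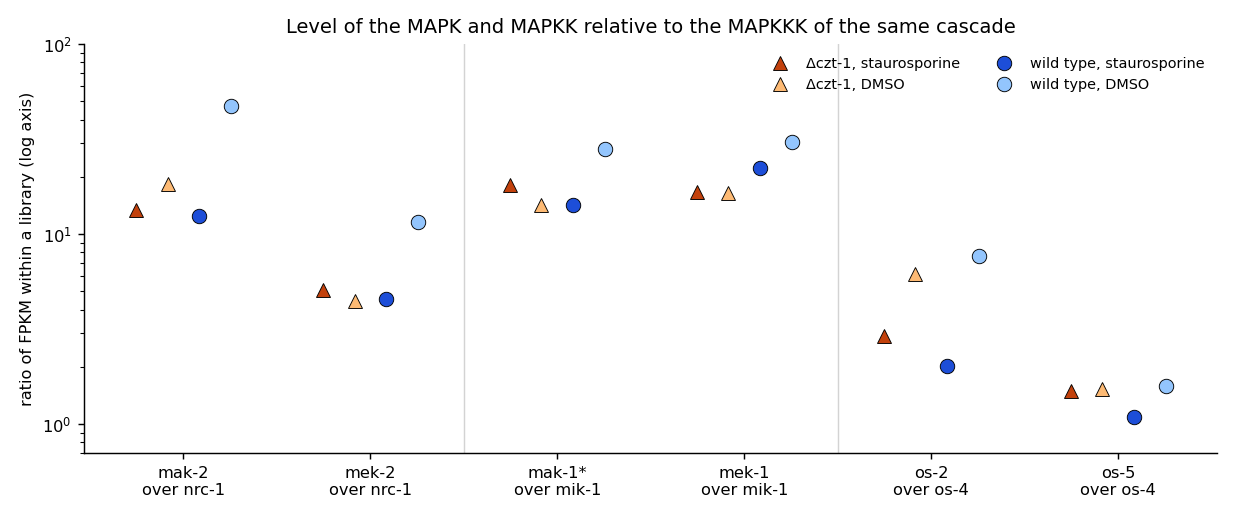
Ratio of FPKM within each library (log axis) of the MAPK and the MAPKK to the MAPKKK of the same cascade; each point is 1 library, triangles are Δ*czt-1*, circles wild type, and *mak-1* is marked with an asterisk because it is not one of the 8. Wild type with DMSO has the highest ratio in all 6 pairs, 46.9 for *mak-2* over *nrc-1* and 7.70 for *os-2* over *os-4*.

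The strains were then compared at the same treatment. With staurosporine all 6 kinases of the mating and osmotic cascades had higher levels in the mutant. Both cell wall kinases of the 8 had lower levels, unlike their MAPK *mak-1*. Of all 7896 rows, 3844 were higher in the mutant. Relative to wild type, *os-2* was higher by 0.78 (1.73-fold in FPKM), *os-5* by 0.70 (1.64-fold), *mek-2* by 0.59 and *mak-2* by 0.54. *nrc-1* was higher by 0.41 and *os-4* by 0.26. *mek-1* differed by −0.62 and *mik-1* by −0.18, whereas *mak-1*, which is not one of the 8, was higher by 0.16. These signs were the same with equal library sums. None of the 8 reached 2-fold, against 23.1% of all rows, and 4 reached 1.5-fold, 3 higher and 1 lower, against 45.1% of all rows. The median of the 8 was 0.48, that of all rows −0.03.

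With DMSO the strains were closer over all rows, 4.94% of which reached 2-fold, against 23.1% with staurosporine. This did not hold for every kinase. *nrc-1* and *mik-1* differed more with DMSO than with the drug, and *mek-2* and *mak-2* by similar sizes. Relative to wild type, the mutant had more of the MAPKKK transcripts *nrc-1*, by 0.75 (1.78-fold in FPKM), and *mik-1*, by 0.56. The third MAPKKK, *os-4*, was at 0.06, close to the median row (0.05). The MAPK and MAPKK genes were lower or level in the mutant, with *mek-2* at −0.53, *mak-2* at −0.52, *mek-1* at −0.29, *os-2* at −0.26 and *os-5* at 0.01. With equal library sums *os-2* was at 0.03, and relative to the median row *os-5* was at −0.05. None of the 8 reached 2-fold, as did 4.94% of all rows, and *nrc-1* alone reached 1.5-fold, a size that 19.6% of all rows reached. *nrc-1* lay above 93.7% of rows, and *mek-2* and *mak-2* above 9.41% and 9.92%. The median of the 8 was −0.12, against 0.05 for all rows. With equal library sums these medians were 0.16 and 0.29, so the 8 were below the median row on both scales.

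The comparison of the strains with DMSO shares the wild-type DMSO library with the drug response of wild type, and the Δ*czt-1* DMSO library with that of the mutant. A high or low value in one such library therefore enters both comparisons. For *mak-2*, whose wild-type DMSO level of 319 FPKM was the highest of the 4, this gave −0.86 for staurosporine over DMSO in wild type and −0.52 for Δ*czt-1* over wild type with DMSO. *nrc-1*, at its lowest in the same library, had 0.95 and 0.75 in these comparisons.

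**Figure D4:**
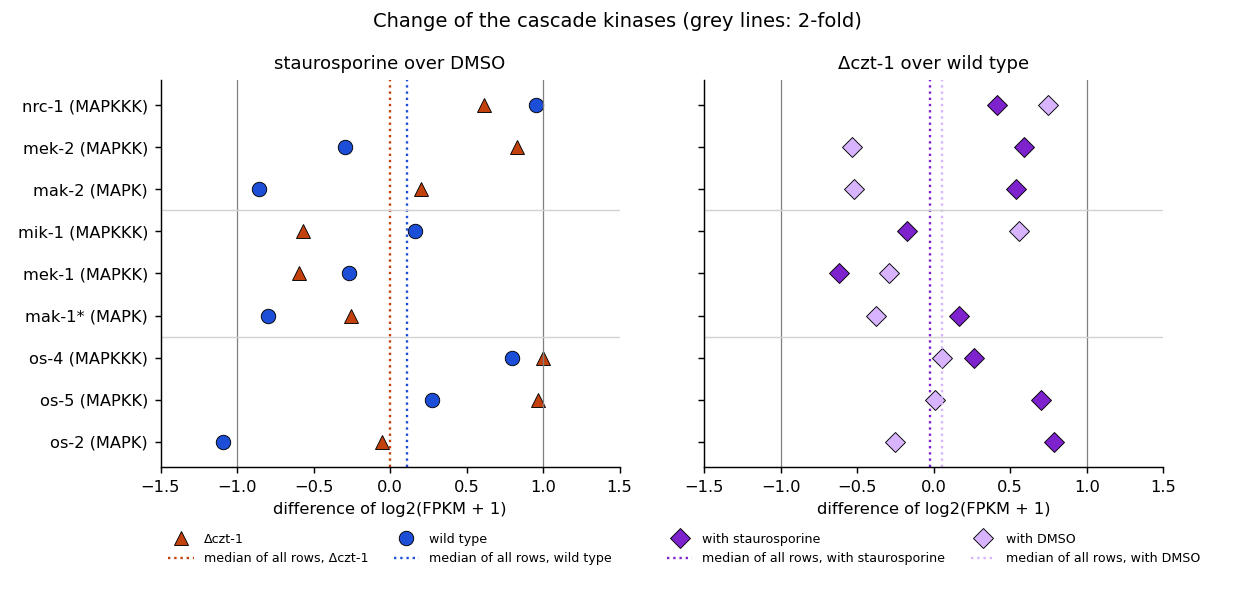
Differences of log2(FPKM + 1) for the cascade kinases, staurosporine over DMSO on the left (triangles Δ*czt-1*, circles wild type) and Δ*czt-1* over wild type on the right (dark diamonds with staurosporine, light diamonds with DMSO); dotted lines are medians of all rows, grey lines mark 2-fold, and *mak-1* with an asterisk is not one of the 8. With staurosporine the 6 mating and osmotic kinases lie between 0.26 and 0.78 and the pair of cell wall kinases at −0.18 and −0.62, beside 0.16 for *mak-1*. On the left, *mek-2*, *mak-2* and *mek-1* in wild type and *mik-1*, *mek-1* and *os-2* in Δ*czt-1* turn positive when libraries are scaled to the same sum, as does *mak-1* in both strains.

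The response of the mutant minus that of the wild type summarizes the 4 libraries in 1 value per gene. It was 1.12 for *mek-2*, 1.06 for *mak-2* and 1.04 for *os-2*, the only kinases of the 8 past 2-fold, a size that 30.9% of all rows reached. *os-5* had 0.69 and *os-4* 0.20, the value for *os-4* being −0.01 with equal library sums. The value was below 0 for *nrc-1* (−0.34), *mek-1* (−0.33) and *mik-1* (−0.74). At 1.5-fold there were 4 above and 1 below, 5 of 8, against 54.1% of all rows, and the median of the 8 was 0.45, against −0.07 for all rows. The value for the 3 genes past 2-fold was 0.89, 0.82 and 0.81 with equal library sums, short of that size.

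The profiles of the 8 kinases over the 4 libraries were compared by the distance between log2(FPKM + 1) values, each gene centred on its own mean. The closest pair was the MAPK genes *mak-2* and *os-2* of different cascades, at 0.35, followed by *os-4* and *os-5* at 0.42 and by the MAPKKK genes *nrc-1* and *os-4* at 0.51. The most distant pair was *nrc-1* and *mek-1*, at 1.60. Members of 1 cascade could be far apart, with 1.43 between *nrc-1* and *mak-2* and 1.53 between *os-4* and *os-2*.

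For *nrc-1*, the kinase with the widest range, the closest profiles were sought among the 4956 rows with a mean of at least 10 FPKM. The nearest was NCU06605, *dim-8*, described as a DNA damage-binding protein 1, at a distance of 0.05, with 31.1 and 20.3 FPKM in Δ*czt-1* (staurosporine, DMSO), against 23.8 and 12.1 FPKM in wild type. NCU02103, the largest subunit of RNA polymerase II, followed at 0.10, and NCU02828, a condensin component, at 0.13. Each of them was highest in Δ*czt-1* with staurosporine and lowest in wild type with DMSO, as *nrc-1* was, which follows from their choice by likeness over these libraries.

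Other genes of the 3 pathways were read from a list of 18, 6 for each cascade, all of which passed the filter. With staurosporine 1 of them was at least 2-fold higher and 5 at least 2-fold lower in Δ*czt-1*, and 6 were at least 2-fold lower and none higher in wild type, 6 of 18 in each strain beside 37.7% and 26.8% of all rows. With equal library sums these counts were 3 higher and 3 lower in Δ*czt-1*, and 6 higher and 1 lower in wild type. Of all 7896 rows, that scaling gave 2766 higher and 846 lower in Δ*czt-1*, and 3403 higher and 353 lower in wild type. The median of the 18 was −0.26 in Δ*czt-1* and −0.03 in wild type, and 0.40 and 0.84 with equal library sums. For all rows it was 0.00 and 0.11, and 0.60 and 0.85 with equal library sums. Against wild type, 1 of the 18 was at least 2-fold higher in Δ*czt-1* with DMSO (median 0.26), beside 4.94% of all rows. With equal library sums 2 were, beside 532 of all 7896 rows, 416 of them higher. With staurosporine none differed by that size (median 0.11), beside 23.1% of all rows.

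In the mating cascade, *ham-5* (NCU01789), the scaffold that holds the MAK-2 kinases together, had 9.02 and 36.1 FPKM in Δ*czt-1* (staurosporine, DMSO), against 8.15 and 23.5 FPKM in wild type. It was lower with the drug in both strains, at −1.89 in the mutant and −1.42 in wild type (−1.26 and −0.57 with equal library sums), beside 0.20 and −0.86 for its kinase *mak-2*. *so* (NCU02794), whose product alternates with MAK-2 at the tips of fusing germlings, had 37.6 and 51.6 FPKM in Δ*czt-1*, against 22.5 and 68.2 FPKM in wild type. The drug difference of *so* was −0.45 in the mutant (0.21 with equal library sums) and −1.56 in wild type (−0.68), a value for the mutant minus wild type of 1.12, as for *mek-2*. *hym-1* (NCU03576), which is needed for MAK-2 signaling and polar growth, had 35.0 and 12.3 FPKM in Δ*czt-1*, against 23.7 and 12.5 FPKM in wild type, higher with the drug by 1.43 in the mutant and 0.87 in wild type (2.08 and 1.72 with equal library sums).

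In the mutant response and between the strains with DMSO, the largest difference on the list was that of *rlm-1* (NCU02558), which encodes a MADS-box transcription factor whose yeast counterpart Rlm1 acts below the cell wall MAP kinase. It stood at 9.73 and 99.3 FPKM in Δ*czt-1* (staurosporine, DMSO), against 12.3 and 29.6 FPKM in wild type. It was 10.2-fold lower with the drug in the mutant and 2.40-fold lower in wild type (−3.22 and −1.20 on the log2 scale, −2.59 and −0.34 with equal library sums), so that the treated libraries were at similar levels. With DMSO it was 3.35-fold higher in Δ*czt-1* than in wild type and lay above 99.8% of rows. The kinases above it in the cascade differed by far less, by 0.56 for *mik-1* and −0.29 for *mek-1* in the same comparison.

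Of the genes listed under the osmotic pathway, 3 were lower with staurosporine by at least 2-fold in both strains. Of all 7896 rows, 1545 were lower by that size in Δ*czt-1* and 1108 in wild type. The rows lower in both strains were not counted, so the number of genes has no background. Their place in the OS-2 cascade was taken from the list and was not tested. With equal library sums all 3 were still lower, and *dcc-1* and *rrg-2* by less than 2-fold. *dcc-1* (NCU00939), a histidine kinase, had 14.9 and 36.7 FPKM in Δ*czt-1* (staurosporine, DMSO), against 17.7 and 43.7 FPKM in wild type. *rrg-2* (NCU02413), a response regulator with the deposited description transcription factor prr1, had 14.4 and 32.4 FPKM in Δ*czt-1*, against 16.2 and 35.8 FPKM in wild type. The differences of *dcc-1* (−1.25 and −1.26) and of *rrg-2* (−1.12 and −1.10) were almost equal in the mutant and the wild type. The row of *hpt-1* (NCU01489), the phosphotransfer protein, joins this locus with NCU01490, so its value cannot be assigned to 1 gene: 74.6 and 246 FPKM in Δ*czt-1*, against 53.1 and 242 FPKM in wild type.

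**Figure D5:**
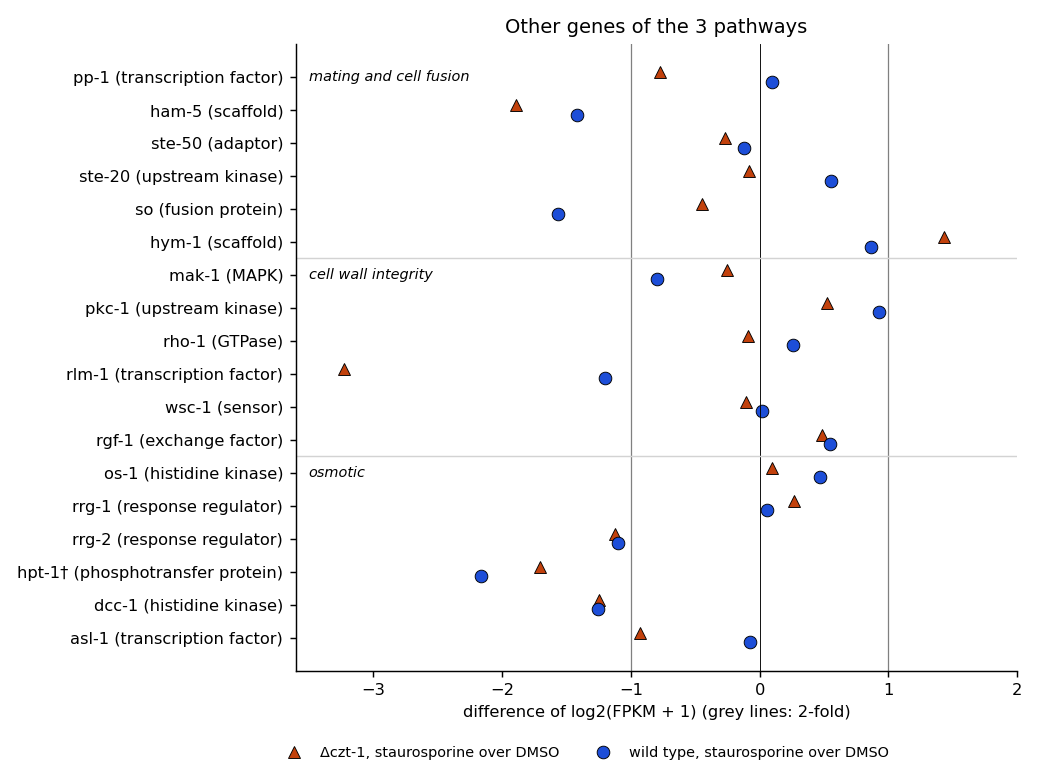
Difference between staurosporine and DMSO (log2(FPKM + 1)) of the 18 other genes of the 3 pathways, in blocks by cascade; triangles are Δ*czt-1*, circles wild type, grey lines mark 2-fold, and the dagger marks the row of *hpt-1*, which joins 2 loci. *rlm-1* lies farthest out in Δ*czt-1*, at −3.22, and is at −1.20 in wild type, where the row of *hpt-1* lies farthest out; *dcc-1* and *rrg-2* show almost the same value in both strains; when libraries are scaled to the same sum, 6 of the 18 genes in Δ*czt-1* and 3 in wild type change sign, *mak-1* in both.

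The culture may hold conidia as well as germlings, and in such bulk RNA fewer cells of a type and less RNA per cell cannot be told apart. The conidial genes *con-6*, *con-8*, *con-10* and *eas* summed to 167 and 49.3 FPKM in Δ*czt-1* (staurosporine, DMSO), against 64.1 and 24.9 FPKM in wild type. All 4 were highest in Δ*czt-1* with staurosporine (15.2 to 95.7 FPKM), the library in which *nrc-1*, *mek-2*, *os-4* and *os-5* were also highest, and none was at 0 in any library. Actin, a gene of all cells, had 1224 and 1517 FPKM in Δ*czt-1*, against 1641 and 1591 FPKM in wild type. The part of these genes' sources in the kinase values was not tested.

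Some gene models overlap a neighbour in the RefSeq annotation of the NC12 assembly, and the libraries are not stated to keep strand. *mek-2* shares 292 of its 3165 bases with NCU04613, which had 35.1 and 19.3 FPKM in Δ*czt-1* (staurosporine, DMSO), against 20.6 and 18.9 FPKM in wild type. *mak-2* shares 127 of 2864 bases with NCU02394, at 44.9 and 15.2 FPKM in Δ*czt-1*, against 19.5 and 14.3 FPKM in wild type. Both neighbours were highest in Δ*czt-1* with staurosporine and lower than the kinase in every library. *mak-1* shares 1160 of 3939 bases with NCU09843 (4.02 and 30.8 FPKM in Δ*czt-1*, against 16.9 and 42.4 FPKM in wild type). This was the longest of these overlaps, and the values of *mak-1* are uncertain to that extent. The part of the neighbours in these values was not tested, and no overlap was found for the other 6 kinases.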

How the data were processed

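RNA-seq (single reads of 50 bp) of 4 *N. crassa* libraries was used, 1 per condition, so no test across samples was possible. Per the submitters' processing notes, the authors used TopHat2 2.0.4, Cufflinks 2.0.2 and Cuffdiff. For the genome build, the sources used here name none. The 3 deposited tables hold FPKM values made by the authors, normalised to transcript length and mapped reads; a library present in 2 tables carried identical values in both. Their columns of fold changes, test statistics, p-values and q-values hold the authors' own comparisons and were not used.

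Values were read with Python 3.11.15, numpy 2.4.6 and pandas 2.3.3 and drawn with matplotlib 3.10.9. Of 9691 rows (66 joining several loci), 7896 with at least 1 FPKM in any library were kept, and log2(FPKM + 1) differences were taken as deposited. Rows were counted at 2-fold and 1.5-fold by size alone. The computation was checked on simulated data. Alternatives were other pseudocounts, filters, scalings and thresholds. Level classes by mean FPKM, and equal library sums for these classes and the pathway list, were chosen after the values were seen.

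Named genes were the 8 kinases, *mak-1*, genes of an 18-gene pathway list at least 2-fold apart in a comparison, the 3 rows most like the kinase with the widest range, and *czt-1*. The rule for the 8 kinases uses locus tags only, but they and the lists were chosen with earlier results of these data known. Names, neighbours and gene lengths came from the RefSeq annotation of NC12. The list's *ste-50*, *ste-20*, *pkc-1* and *rgf-1* carry other symbols or spellings there, and *rlm-1* only its locus tag. No coordinates or sequences are given.

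The read worth was estimated from the fullest bin of the lowest FPKM values times gene length, and is rough. With 1 library per condition the precision of a value is unknown beyond counting error.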

Additional observations from a re-analysis of the deposited data

Results flagged for a closer look

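For 3 kinases the difference with staurosporine had opposite signs in the strains, each strain being 1 library per treatment. The share of all rows with opposite signs was not counted, so this number of kinases has no background to be set against. *mek-2* was at 0.83 in Δ*czt-1* and −0.29 in wild type (log2 scale), a mutant minus wild-type value of 1.12. *mak-2* was at 0.20 in Δ*czt-1* and −0.86 in wild type, 1.06 apart. *mik-1* was at −0.57 in Δ*czt-1* and 0.16 in wild type, a value of −0.74. The difference between the strains was not tested, because no condition was replicated. With equal library sums all 3 were above 0 in both strains (*mek-2* 1.49 and 0.60, *mak-2* 0.87 and 0.05, *mik-1* 0.05 and 1.00), while the mutant minus wild-type values kept their signs (0.89, 0.82 and −0.94).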

How the results depend on the processing

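No paired analysis was possible because each condition had 1 library and the labels carry no replicate numbers. Counts below are of kinases among the 8, then of all rows. At 1.5-fold in place of 2-fold the kinases were 4 for wild type with staurosporine over DMSO (main count 1), 5 for Δ*czt-1* with staurosporine over DMSO (0), 1 for the strains with DMSO (0), 4 with staurosporine (0) and 5 for the difference in response (3); at 3-fold there were 0 in wild type and 0 for the difference in response. A pseudocount of 0.1 gave 2 in wild type and 1 in Δ*czt-1*. Equal library sums gave 3 in wild type, all higher, 4 in Δ*czt-1* and 0 for the difference in response. Over all rows, in the order wild-type response (2115), Δ*czt-1* response (2980), strains with DMSO (390), strains with staurosporine (1821) and difference in response (2443), the counts were 3899, 4687, 1551, 3564 and 4270 at 1.5-fold, 891, 1538, 112, 679 and 1006 at 3-fold, and 1401, 1951, 147, 946 and 1382 with a pseudocount of 5. For the strains with DMSO a pseudocount of 0.1 gave 787 and a minimum of 10 FPKM gave 253. Equal sums gave 3756 rows in the wild-type response, 90.6% of them higher against 47.6% as deposited. They gave 3612 rows in Δ*czt-1*, 76.6% of them higher against 48.2%, and 2723 for the difference in response. Of the 40 values of single kinases, 8 changed sign under equal sums, 1 under centring on the median row and 0 under the other pseudocounts and filters. The median of the 8 turned from −0.05 to 0.82 in wild type and from −0.12 to 0.16 between the strains with DMSO. That of all rows moved as well, from 0.11 to 0.85 and from 0.05 to 0.29. The cause of these shifts was not tested. Without replicates, no difference here can be set against the spread between cultures.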
